A study of Homo sapiens with 4 samples.

Results

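Expression of 8 genes that mark liver progenitor cells and liver cancer stem cells was examined in the RNA-seq libraries of the migrasome experiment. The 8 genes, EPCAM, PROM1, CD24, CD44, THY1, ANPEP, SOX9 and KRT19, were fixed by name and found by their gene symbols and Ensembl identifiers, which gave 8 members among the 58735 genes counted. Cells of the MHCC-97H line, an established metastatic hepatocellular carcinoma (HCC) line whose genotype is given as WT, received PBS or 2 μg of migrasomes (Migs), large extracellular vesicles shed by migrating cells, and were collected after 24 h. The Migs came from MHCC-97H cells kept in normoxia (Normo-Migs), from MHCC-97H cells kept in hypoxia (Hypo-Migs), or from hypoxic MHCC-97H cells in which CD147, a surface glycoprotein encoded by BSG, had been knocked out (CD147KO-Migs). The knockout was in the cells that donated the Migs and not in the sequenced cells, and the labels do not say whether the knockout cells were a single clone. No difference in batch is recorded between the libraries. There was 1 library per condition and 4 in all, so no difference below has a replicate check, and every test compares libraries and not conditions.

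During liver injury, hepatic progenitor cells and reactive bile duct cells expand, and they carry surface and cytoskeletal proteins that mature hepatocytes largely lack. EPCAM is a homophilic adhesion molecule, CD24 and THY1 (CD90) are small glycoproteins held in the membrane by a GPI anchor, CD44 is the main receptor for hyaluronan, PROM1 (CD133) is a pentaspan protein of membrane protrusions, and ANPEP (CD13) is a membrane aminopeptidase. SOX9 is a transcription factor of the ductal lineage, and KRT19 is an intermediate filament protein of bile duct cells. Subsets of HCC cells sorted for several of these proteins are known to form tumors efficiently and to resist drugs, which makes the markers relevant to a study of sorafenib resistance.

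The libraries held from 33882496 to 40285223 reads assigned to genes. The PBS library stood apart, with 3 reads or fewer for 251 genes that had at least 100 reads in each Mig library, whereas this number was 0 for every Mig library. The opposite, at least 100 reads in the PBS library and 3 or fewer in each Mig library, held for 13 genes. A difference between the PBS library and the Mig libraries therefore cannot be told apart from any other difference of that one library, and all results against PBS rest on it. The results without that library are the 3 comparisons among the Mig libraries. The label of the cells as hepatocellular was checked with 14 hepatocyte genes. ALB, APOB, TTR and G6PC had 0 reads in all 4 libraries, and so did the oncofetal liver genes AFP and GPC3, whereas CPS1, the first enzyme of the urea cycle, had between 59306 and 76879 reads. HNF4A, a transcription factor of hepatocytes, had between 134 and 246 reads. Of the 14 genes, 7 had fewer than 10 reads in every library. Reads of the main plasma protein genes of hepatocytes, ALB, APOB and TTR, were thus not found with PBS or with Migs, and the identity of the cells was not tested further. Where no read was found, a level of up to 3 reads remains possible, or 0.0745 to 0.0885 CPM (reads per 1000000 reads on genes) depending on the library. Intervals and limits of this kind cover counting error only, because PCR copies of one molecule could not be recognised.

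The markers fell into groups by their direction between the PBS library and the Mig libraries. THY1, ANPEP and SOX9 were close to absent in the PBS library and present in all 3 Mig libraries, EPCAM and CD24 were several-fold higher in the Mig libraries, and KRT19 was abundant in the PBS library and nearly lost from the others. In bulk RNA, fewer cells that carry a marker and less RNA of it per cell cannot be told apart. Among the Mig libraries, KRT19 alone passed the criteria, in 1 of 3 comparisons. A gene was called when the log2 fold change between 2 libraries was at least 1 in absolute value and the adjusted p was 0.05 or less in edgeR's two-sided exact binomial test of their reads (Benjamini-Hochberg, over the 19895 genes that reached 10 reads in any library).

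EPCAM (ENSG00000119888) lies on the plus strand of chromosome 2 from 47345158 to 47387601 (GRCh38). It had 578 reads in the PBS library, and its reads in the Normo-Migs, Hypo-Migs and CD147KO-Migs libraries numbered 1451, 1834 and 1524, which is 17.1, 42.0, 45.5 and 43.5 CPM in this order of libraries, kept below. The level was lowest with PBS, and the 3 Mig libraries were close to each other. Relative to PBS, the ratio of scaled reads was 2.54 with Normo-Migs (exact 95% interval 2.31 to 2.81), 2.73 with Hypo-Migs (2.48 to 3.00) and 2.60 with CD147KO-Migs (2.36 to 2.86).

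CD24 (ENSG00000272398; chromosome 6, 106969831 to 106975627, minus strand) was the most abundant of the markers per gene length in each Mig library. Its reads numbered 4478 with PBS and 17523, 23510 and 20966 with the 3 kinds of Migs, or 132, 507, 584 and 598 CPM. The ratio to PBS was 3.96 with Normo-Migs (3.84 to 4.10), 4.51 with Hypo-Migs (4.37 to 4.66) and 4.61 with CD147KO-Migs (4.47 to 4.77). The processed pseudogene CD24P4, a near copy of the coding sequence, took at most 0.290% as many reads as CD24 in any library. How reads shared by both were assigned is not given in the sources used here.

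THY1 (ENSG00000154096; chromosome 11, 119417378 to 119424985, minus strand) also marks fibroblasts, hepatic stellate cells and some endothelial cells. It had 11 reads with PBS and 1681, 2082 and 1859 with Migs, or 0.325, 48.6, 51.7 and 53.0 CPM. The ratio of scaled reads to PBS was 155 with Normo-Migs (86.3 to 311), 163 with Hypo-Migs (90.8 to 327) and 167 with CD147KO-Migs (92.9 to 334). These intervals are wide because the PBS library contributed few reads. The antisense gene USP2-AS1, which overlaps THY1 on the opposite strand, had between 67 and 109 reads in each of the 4 libraries, and the handling of strand in the counting is not given in the sources used here.

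ANPEP (ENSG00000166825; chromosome 15, 89784889 to 89815401, minus strand) gave the largest contrast with PBS among the 8 markers. No read was counted in the PBS library, against 3615, 3541 and 2668 in the Mig libraries, which is 105, 87.9 and 76.1 CPM. Set against the limit of 3 reads in the PBS library, ANPEP was at least 1221-fold higher with Normo-Migs, at least 1015-fold higher with Hypo-Migs and at least 876-fold higher with CD147KO-Migs. The exact 95% lower limits of the log2 fold change, which include the counting error of both libraries, were 9.95, 9.69 and 9.48. ANPEP is transcribed from an upstream promoter in myeloid cells and fibroblasts and from a promoter nearer the coding sequence in epithelial cells. The windows around both starts are shown because this gene had no read in one library and many in the others, with every CG dinucleotide, the site of DNA methylation, in capitals. They run from 250 bases before a start to 50 after it, on the minus strand of chromosome 15, and come from RefSeq (GRCh38.p14). CD44, described below and present in all 4 libraries, is given for contrast (plus strand of chromosome 11).
ANPEP upstream start, chr15:89814803-89815102: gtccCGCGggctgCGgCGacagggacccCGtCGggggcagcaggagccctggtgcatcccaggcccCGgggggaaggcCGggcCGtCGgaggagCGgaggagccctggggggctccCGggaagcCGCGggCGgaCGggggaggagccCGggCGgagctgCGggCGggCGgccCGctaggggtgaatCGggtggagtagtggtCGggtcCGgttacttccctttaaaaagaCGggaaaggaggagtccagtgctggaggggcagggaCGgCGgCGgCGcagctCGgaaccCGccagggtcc
ANPEP downstream start, chr15:89806579-89806878: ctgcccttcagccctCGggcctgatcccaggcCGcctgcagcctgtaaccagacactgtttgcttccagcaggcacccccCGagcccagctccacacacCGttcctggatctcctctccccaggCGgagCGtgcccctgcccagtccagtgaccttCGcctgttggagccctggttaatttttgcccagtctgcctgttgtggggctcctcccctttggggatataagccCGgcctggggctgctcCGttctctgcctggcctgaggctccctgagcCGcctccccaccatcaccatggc
CD44, chr11:35138921-35139220: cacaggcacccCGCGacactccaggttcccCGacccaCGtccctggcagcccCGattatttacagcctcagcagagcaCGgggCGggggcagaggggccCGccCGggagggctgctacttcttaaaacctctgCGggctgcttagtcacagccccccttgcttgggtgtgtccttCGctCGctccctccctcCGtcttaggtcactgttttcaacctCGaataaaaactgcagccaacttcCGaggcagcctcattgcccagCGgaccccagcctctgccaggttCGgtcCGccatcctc

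The upstream ANPEP window held 32 CG dinucleotides and 4 copies of GGGCGG (both strands), the core of the binding site of SP1-type factors, and the downstream window held 10 and 0. At least 32 CG dinucleotides were found in 18.9% of the 35116 promoter windows of the same length, and the median was 14. The CD44 window had 18 CG dinucleotides and 2 copies of GGGCGG, a motif present in 45.0% of all windows. GTTAAT, a half-site of HNF1 factors, occurred once in the downstream ANPEP window and in neither of the other windows shown, against 6.88% of all windows with a match on either strand. CANNTG, the E-box read by TWIST1 and other basic helix-loop-helix factors, had 0 matches in all 3 windows, and 68.7% of all windows held it. Windows were found for 4 of the 8 markers, ANPEP, CD24, CD44 and PROM1. Among those not shown, CANNTG occurred in most PROM1 windows (2 matches each) and in a CD24 window (1 match). The counts of reads per gene do not tell which start was used, and a match of letters is a description and not a binding site.

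SOX9 (ENSG00000125398; chromosome 17, 72121020 to 72126420, plus strand) was the scarcest of the 5 markers that were higher in the Mig libraries. It had 7 reads with PBS and 327, 441 and 391 with Migs, or 0.207, 9.46, 10.9 and 11.2 CPM. The ratio to PBS was 47.3 with Normo-Migs (22.7 to 119), 54.2 with Hypo-Migs (26.1 to 136) and 55.0 with CD147KO-Migs (26.5 to 138).

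KRT19 (ENSG00000171345; chromosome 17, 41523617 to 41528308, minus strand) went the other way. The PBS library held 11287 reads, whereas 75, 52 and 32 were counted in the Mig libraries, or 333, 2.17, 1.29 and 0.913 CPM. Scaled reads were thus 149-fold lower with Normo-Migs (118 to 189), 252-fold lower with Hypo-Migs (192 to 338) and 358-fold lower with CD147KO-Migs (253 to 524). The 5 KRT19 pseudogenes of the table (KRT19P1, KRT19P2, KRT19P3, KRT19P4 and KRT19P6) had 0 reads in all libraries.

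CD44 (ENSG00000026508; chromosome 11, 35138870 to 35232402, plus strand) varied least with respect to PBS. It had 11088 reads with PBS and 7079, 7560 and 6520 with Migs, or 327, 205, 188 and 186 CPM. The PBS library was the highest, and the log2 fold change against it was -0.63 with Normo-Migs (exact 95% interval -0.67 to -0.59), -0.77 with Hypo-Migs (-0.81 to -0.73) and -0.79 with CD147KO-Migs (-0.83 to -0.74). All 3 were beyond counting error and did not reach the fold criterion. The intronic gene AL133330.1, on the same strand within CD44, had at most 14 reads. GENCODE release 29 lists 26 protein-coding transcripts of CD44, with 2 to 18 exons, and reads summed over a gene cannot separate the standard from the variant isoforms.

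PROM1 (ENSG00000007062; chromosome 4, 15963076 to 16084378, minus strand), one of the most used stem cell markers in HCC, was near the limit of detection. It had 12 reads with PBS, 2 with Hypo-Migs and 0 with Normo-Migs and CD147KO-Migs. Against the limit of 3 reads it was at least 3.95-fold lower with Normo-Migs and at least 4.06-fold lower with CD147KO-Migs, taking the 12 reads of the PBS library as exact. With their counting error, the exact 95% limits nearest to 0 were -1.46 and -1.50 on the log2 scale. Its ratio between PBS and Hypo-Migs was 6.98 with a counting interval of 1.55 to 64.2. On the scale of the FPKM deposited by the authors, its highest value was 0.0467.

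In the comparisons with PBS, 7 of the 8 markers were called each time, 5 higher and 2 lower with Migs, and CD44 was the exception. With an assumed coefficient of variation of 0.4 between replicates the count was 4 in each comparison, and it was 0 in DESeq2 with the 4 libraries taken as replicates. The background was high, since the share of all tested genes that were called was 27.2% (Normo-Migs), 28.3% (Hypo-Migs) and 27.5% (CD147KO-Migs). The median log2 fold change of the 8 markers was 1.67, 1.81 and 1.79 in the same order, also with genes at 0 reads set to their bound, beside a median over all genes of 0.03, 0.04 and 0.03. These counts carry a selection. PROM1 passed the filter on reads only through the PBS library, and ANPEP and SOX9 only through the Mig libraries, so that the filter favoured a difference in these 3. Where 10 reads were required in all libraries, 5 markers remained for testing, and 4 of them were called in each comparison with PBS. All 3 comparisons share the PBS library, so they are not independent.

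Among the Mig libraries the differences were small. Hypo-Migs against Normo-Migs gave 0 calls among the 8 markers, with 4.90% of all genes called in that comparison. An unadjusted p under 0.05 was found for 5 markers by the exact binomial test, and 0 were called by DESeq2 with the 4 libraries taken as replicates. CD24 had a log2 fold change of 0.19 (exact 95% interval 0.16 to 0.22), whereas CD44 and ANPEP were at -0.14 (-0.19 to -0.09) and -0.27 (-0.33 to -0.20). The adjusted p was 0.05 or less for 4 markers, these 3 and KRT19, whose log2 fold change was -0.74 (-1.30 to -0.24). For EPCAM (0.10), THY1 (0.07) and SOX9 (0.19) it was above 0.05.

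Between Hypo-Migs and CD147KO-Migs, the comparison that bears on CD147, 0 of the 8 markers were called, beside 5.04% of all genes. An unadjusted p under 0.05 was reached by 2 markers in the exact binomial test, and DESeq2 again called 0. ANPEP was the only marker with an adjusted p of 0.05 or less, at a log2 fold change of 0.21 (exact 95% interval 0.14 to 0.28). The intervals were -0.03 to 0.17 for EPCAM, -0.03 to 0.06 for CD44, -0.12 to 0.06 for THY1 and -0.22 to 0.18 for SOX9. For CD24, whose log2 fold change was -0.03, the interval ended just below 0, and the adjusted p was 0.0754 in edgeR's exact binomial test. Counting error thus left no room for a log2 fold change of 1 in any of these 5 genes between these 2 libraries. For KRT19 the interval was -0.16 to 1.19, on 52 and 32 reads, so that no difference was detected and a log2 fold change of 1 was not excluded.

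Normo-Migs against CD147KO-Migs gave 1 call among the 8 markers, with 4.91% of all genes called. The donor cells of these Migs differed in both oxygen and CD147, which cannot be told apart in this comparison. KRT19 had 75 and 32 reads and a log2 fold change of 1.22 (0.65 to 1.91), with an adjusted p of 0.000238 by the exact binomial test of edgeR. An unadjusted p under 0.05 was found for 6 markers in this test. DESeq2 called 0, and the call of KRT19 was also lost with an assumed coefficient of variation of 0.4 and on the log2(FPKM + 1) scale, where the difference was 0.48. ANPEP followed with 0.48 (0.41 to 0.55) and CD24 with -0.22 (-0.25 to -0.19), both below the fold criterion. Over the 3 Mig libraries, the highest scaled level was 1.07 times the lowest for EPCAM, 1.08 for THY1, 1.12 for CD44, 1.16 for CD24 and SOX9, 1.39 for ANPEP and 2.41 for KRT19. CD44, ANPEP and KRT19 were highest with Normo-Migs and lowest with CD147KO-Migs. CD24, THY1 and SOX9 were highest with CD147KO-Migs and lowest with Normo-Migs, whereas EPCAM was highest with Hypo-Migs.

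Levels of different genes were compared per gene length, on the FPKM scale deposited by the authors. In the PBS library the order was KRT19 (140 FPKM), CD24 (41.8), CD44 (32.0), EPCAM (6.63), then THY1, SOX9 and PROM1 between 0.0467 and 0.0537, and ANPEP listed at 0. The counting intervals of THY1, SOX9 and PROM1 overlapped between neighbours, so that their order in this library was not resolved. In the Hypo-Migs library CD24 came first (188 FPKM), followed by CD44 (18.7), EPCAM (18.0) and ANPEP (18.0), whose intervals overlapped between neighbours, and then by THY1 (8.68), SOX9 (2.77), KRT19 (0.550) and PROM1 (0.00665). The Normo-Migs library differed in that ANPEP (21.6 FPKM) stood in second place, with a counting interval that overlapped that of CD44 (20.6). In the CD147KO-Migs library the counting intervals of CD44 (18.4) and EPCAM (17.1) overlapped, and ANPEP (15.5) was below both. An overlap of separate intervals does not show that levels are equal, and the differences themselves were not tested. Among all genes by FPKM, CD24 ranked 1058 in the PBS library and between 142 and 167 in the Mig libraries. KRT19 ranked 207 in the PBS library and between 12657 and 15661 in the others.

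Genes with the most similar profile were sought among 11440 other protein-coding genes that averaged 100 reads or more, by the Euclidean distance between log2 CPM values centred over the 4 libraries. With only 4 libraries, and one of them far from the rest, such a likeness mainly reflects the size of the difference between PBS and Migs. CD44 was nearest to ITPR3 (distance 0.02) and NAT10 (0.02). EPCAM was nearest to RNF182 (0.04) and FOXN2 (0.05), and CD24 to MEGF9 (0.03) and SECTM1 (0.07). THY1 was nearest to EYA1 (0.12) and SH3RF3 (0.16), SOX9 to INSL4 (0.15) and TCEA3 (0.16), and ANPEP to SFRP1 (0.30) and HS6ST2 (0.42). KRT19 had the most distant neighbours, EDNRB (0.68), with 522 reads in the PBS library and at most 4 elsewhere, and ESRRG (0.87), with 414 and 0.

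Other markers used for liver progenitor and cancer stem cells were also split between higher and lower levels. Of 18 such genes, 11 had enough reads to be tested, and 9 were called in Hypo-Migs against PBS, 5 higher and 4 lower, beside 28.3% of all genes tested. ALDH1A1, CDH1, DCLK1 and ABCB1 passed the filter on reads only through the side where they were high, and 5 of 7 were called when 10 reads were required in all libraries. The median log2 fold change was 0.47. ALDH1A1, a retinal dehydrogenase used to sort stem-like cells, had 8 reads with PBS and 6832, 8311 and 7772 with Migs, a ratio of 893 for Hypo-Migs (453 to 2070). CDH1, the epithelial cadherin, had 0 reads with PBS and 114, 123 and 112 with Migs, which is at least 35.3-fold higher with Hypo-Migs. DCLK1, a marker of tuft cells, had 0 reads with PBS and 16, 16 and 7. ABCB1, the drug efflux pump P-glycoprotein, had 39 reads with PBS and 4, 0 and 6 with Migs. It was also called between Hypo-Migs and CD147KO-Migs, on 0 and 6 reads. AFP, GPC3, KIT, DLK1, LGR5 and NCAM1 had fewer than 10 reads in every library.

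Beside KRT19, the ductal genes were also unevenly changed. Of 11 ductal genes tested, 5 were called in Hypo-Migs against PBS, 2 higher and 3 lower, beside 28.3% of all genes tested. When 10 reads were required in all libraries, 4 of 7 were called. The median log2 fold change of the 11 genes was -0.33. KRT7, the keratin most often used with KRT19 to mark bile ducts, had 46770 reads with PBS and between 16648 and 19191 with Migs. The ratio of PBS to Hypo-Migs was 2.83 (2.79 to 2.88), so KRT7 stayed abundant where KRT19 was nearly lost. MUC1, a membrane mucin, was 9.74-fold lower (9.17 to 10.4) and the transcription factor ONECUT2 4.74-fold lower (4.42 to 5.08) with Hypo-Migs. SPP1 (osteopontin, a CD44 ligand) had 0 reads with PBS and 428, 408 and 463 with Migs, through which alone it passed the filter on reads. Against the limit of 3 reads with PBS, it was at least 117-fold higher with Hypo-Migs. The exact 95% lower limit of its log2 fold change was 6.56. AQP1, a water channel, was called between Hypo-Migs and CD147KO-Migs, on 21 and 41 reads. The summed level of the ductal list was 1968 CPM with PBS and 687 to 719 CPM with Migs. Most of this was KRT7 alone, with 1380 CPM with PBS and 475 to 519 CPM with Migs, so the sum does not describe the list as a whole. The part of the list in the result for KRT19 was not tested.

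Among 8 partners and proteases of EPCAM, 2 were called in Hypo-Migs against PBS, a share close to the 28.3% of all genes called in this comparison. Both were lower where EPCAM was higher. They were CLDN7, a claudin that binds EPCAM, which was 2.98-fold lower (2.72 to 3.26), and the tetraspanin TSPAN8, which was 2.90-fold lower (2.65 to 3.19). ADAM17 and PSEN2, which take part in the cleavage of EPCAM, had log2 fold changes of 0.07 and -0.37. Of 7 genes tested for hyaluronan and CD44 splicing, 2 were called, again close to that background. The count was 1 of 5 when 10 reads were required in all libraries. HAS2, a hyaluronan synthase, had 0 reads with PBS and 92, 108 and 83 with Migs, through which alone it passed the filter on reads. Against the limit of 3 reads with PBS, it was at least 31.0-fold higher with Hypo-Migs. The exact 95% lower limit of its log2 fold change was 4.63. ESRP2, a splicing factor that favours the epithelial variants of CD44, was 2.61-fold lower with Hypo-Migs (2.47 to 2.76), and its paralog ESRP1 had at most 14 reads. Among the pluripotency factors, 3 of the 7 tested were called in Hypo-Migs against PBS, beside the 28.3% of all genes. SALL4 and SOX2 passed the filter on reads only through the side where they were high. Where 10 reads were required in all libraries, 1 of 4 was called. SALL4, an oncofetal zinc finger protein, had 2 reads with PBS and 992, 1206 and 1037 with Migs. POU5F1 (OCT4), which has expressed pseudogenes, was 5.77-fold lower with Hypo-Migs (4.81 to 6.95). SOX2 had 12 reads with Hypo-Migs and 0 in the others, which passed the criteria in all 3 comparisons of Hypo-Migs, and LIN28B had at most 10. MYC (0.17) and BMI1 (0.43) were below the fold criterion.

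Because THY1, CD44 and ANPEP also mark other cells, lists of their markers were read beside them. Of 6 fibroblast and stellate cell markers, 4 had enough reads to be tested. With Hypo-Migs 3 were called higher than with PBS, beside 28.3% of all genes tested. DES passed the filter on reads only through the Mig libraries, and 2 of 3 were called when 10 reads were required in all libraries. PDGFRB had 70 reads with PBS and between 1747 and 2446 with Migs, COL1A1 had 681 and between 3472 and 4017, and DES had 4 and between 51 and 98. The defining genes COL1A2 and LRAT had at most 2 and 5 reads, and ACTA2 had between 68 and 95. The summed level of the list was 24.6 CPM with PBS and 157 to 166 CPM with Migs, and its part in the result for THY1 was not tested. All 4 leukocyte markers (PTPRC, CD68, LYZ and CD3E) had fewer than 10 reads in every library, with a summed level of 0.0248 to 0.285 CPM. Of the 5 endothelial markers, 3 had enough reads to be tested. Against PBS, 3 were called with Normo-Migs and 2 with each other kind of Migs, beside 27.2% to 28.3% of all genes tested. PECAM1 was called higher with all 3 kinds of Migs (16 reads with PBS and 118, 146 and 131 with Migs). TEK was called lower with all 3 (11 reads with PBS and 0, 3 and 0 with Migs), but passed the filter on reads only through the PBS library. CDH5 was called lower with Normo-Migs alone (84 reads with PBS and 30, 72 and 59 with Migs). When 10 reads were required in all libraries, 2 of 2 were called with Normo-Migs and 1 of 2 with each other kind of Migs. VWF and KDR had at most 7 and 2 reads. The list summed to between 3.48 and 5.54 CPM, and its part in the result for THY1 was not tested.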

How the data were processed

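RNA-seq was from 4 libraries of MHCC-97H cells, 1 per treatment. The authors deposited raw counts of reads per gene and FPKM values, in which they had divided reads by gene length and library size. The submitters' processing notes name CASAVA 1.8, fastp, HISAT2 2.0.5, featureCounts 1.5.0-p3 and the build hg38. The handling of strand is not given in the sources used here. All 8 markers had the coordinates of GENCODE release 29.

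All 6 pairs of libraries were compared over the 19895 genes that reached 10 reads in any library, with edgeR 4.0.16 in R 4.3.3, after TMM scaling, with a prior count of 2 for log2 fold changes. With 1 library per condition, quasi-likelihood tests could not be fitted, so the exact binomial test was used, with exact 95% intervals for ratios and Wilson intervals for CPM. The criteria (adjusted p of 0.05 or less, absolute log2 of at least 1) are those of the study. The test was checked on data simulated with counting error alone, so the check does not cover spread between replicates. Other scalings, filters, prior counts, units, assumed spreads and DESeq2 1.42.0 were tried, and 1 alternative was added after seeing the data. Figures used Python 3.11.15 and matplotlib 3.10.9.

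The markers and gene lists were chosen with earlier results of these data known. Beside the 8 markers, the genes named were, per list, up to 4 called in most comparisons with PBS (ties by the fold of Hypo-Migs), any called between Mig libraries, and 2 nearest in profile per marker with a mean of at least 100 reads. For the hepatocyte list, the genes listed at 0 and those used as checks are named instead, and further genes not chosen by this rule were named after their values were seen.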

Additional observations from a re-analysis of the deposited data

How the results depend on the processing

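Every called difference of a marker kept its direction under all alternatives that gave a value. Against PBS, 7 markers were called in each comparison, and 4 of the 5 markers tested when at least 10 reads were required in every library. With an assumed coefficient of variation of 0.4 between replicates, 4 markers were called in each (THY1, ANPEP, SOX9 and KRT19), and EPCAM, CD24 and PROM1 were not. When DESeq2 took its dispersion from all 4 libraries, treated as replicates, 0 were called, with an unadjusted p under 0.05 for 3 markers with Normo-Migs and 4 with each of the others. The call of KRT19 between Normo-Migs and CD147KO-Migs fell to 0 with a coefficient of 0.4 (adjusted p = 1, edgeR's exact test), in DESeq2 (adjusted p = 1) and on the log2(FPKM + 1) scale, where the difference was 0.48. Over its alternatives with a test, the adjusted p of this call ranged from 0.000194 (protein-coding genes alone) to 1. On the log2(FPKM + 1) scale PROM1 was not called in any comparison with PBS. DESeq2 size factors, total reads, no filter, a prior count of 0.25, the fold alone, a coefficient of 0.1 and protein-coding genes alone left all counts of called markers as they were, as did leaving out the PBS library for the Mig comparisons, the alternative added after seeing the data. Of the 14 genes of similar profile, 12 were found by the largest absolute difference too. No paired analysis was possible because each condition had 1 library. For the same reason no replicate could be left out.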

Other observations

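The hepatocyte genes that passed the filter gave low reads apart from CPS1 and HNF4A. CYP2E1, a cytochrome of zone 3 hepatocytes, had 1 read with PBS and 9, 26 and 11 with Normo-Migs, Hypo-Migs and CD147KO-Migs. ASGR1, a subunit of the asialoglycoprotein receptor, had 7 reads with PBS and 28, 24 and 19 with Migs. SERPINA1, which encodes alpha-1-antitrypsin, had 25 reads with PBS and 2, 9 and 10 with Migs, and CYP3A4 had 10 and 2, 0 and 0. TF, which encodes transferrin, had 10 reads with CD147KO-Migs and at most 2 elsewhere, and was the one hepatocyte gene called between Mig libraries. It passed the filter on reads only through the CD147KO-Migs library. Of all genes tested, 5.04% were called between Hypo-Migs and CD147KO-Migs and 4.91% between Normo-Migs and CD147KO-Migs.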
